A study of Mus musculus with 14 samples.

Results

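The miR-148 and miR-152 family was followed along the mouse epididymis, the coiled duct in which sperm mature between the testis and the vas deferens. Its members were found by name in both count tables. They were miR-148a-3p, miR-148a-5p, miR-148b-3p and miR-152-3p, 4 of the 999 mature miRNA names listed in either table. Whole tissue had 900 names, epithelial cells had 677, and 578 names were shared. All 4 members stood in both tables and passed the filter on low values in every comparison.

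Small RNA was sequenced from 3 consecutive regions, the caput, the corpus and the cauda, of adult male Swiss mice aged 8 weeks whose blood vessels had been rinsed with buffer. No mouse was treated or genetically altered. Whole tissue gave 3 caput, 2 corpus and 3 cauda libraries, and isolated epithelial cells gave 2 libraries of each region, 14 libraries in all. Each whole tissue replicate pooled 3 mice and each epithelial replicate pooled between 9 and 12. The epithelial cells were freed from tissue washed of sperm and were the cells that stayed in suspension while other cells attached to plastic. The paper reports high enrichment of epithelial cells by staining for the androgen receptor, with no label of the sperm acrosome. Its immunoblots of these cells showed an epithelial cytokeratin and no sperm protein. The methods speak of 2 replicates per region, so the whole tissue libraries of caput and cauda may not all be separate pools, and the p-values measure the spread between these libraries. A footnote of the paper on the epithelial reads calls the replicates technical, although its methods call them biological, so the epithelial libraries carry a like doubt.

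Library totals ran from 1243398 to 2135501 counts in whole tissue and from 89039 to 362867 in epithelial cells, so that the epithelial values, above all those of rare arms, carry more counting error. The epithelial preparation was checked against miRNA lists of the cell types it could hold, in CPM (each count as parts of 1e+06 of its library's total after TMM scaling, which was done within each preparation). The epithelial list (miR-200a, miR-200b, miR-200c, miR-141 and miR-429, 3p arms) summed to between 13408 and 18637 CPM in the epithelial libraries and to between 7244 and 21754 CPM in whole tissue. The smooth muscle list (miR-143 and miR-145 arms) summed to between 144526 and 336801 CPM in the epithelial libraries and to between 53228 and 249092 CPM in whole tissue, so the epithelial libraries were not free of that signal. Region by region it stood higher in the epithelial libraries of caput and corpus than in whole tissue, and the ranges overlapped in cauda. The epithelial list stood lower in epithelial caput, at 15233 to 17326 CPM beside 20075 to 21754 CPM in whole caput, and higher in epithelial corpus and cauda. In caput these lists thus did not show enrichment of epithelial cells. No epithelial list member was at 0 in any library. The germ cell list (miR-741, miR-871, miR-880 and miR-881, 3p arms) summed to between 103 and 1444 CPM in the epithelial libraries and to between 254 and 2571 CPM in whole tissue, and of its 4 members miR-880-3p alone was at 0 in any library, 3 of the 6 epithelial ones.

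A miRNA is cut from a hairpin precursor that can yield a mature strand from each side, the 5p and the 3p arm, and the strand loaded into an Argonaute protein guides it to messenger RNAs. Pairing runs mainly through the seed, bases 2 to 8 counted from the 5′ end, so that miRNAs with the same seed are grouped as a family with overlapping targets. The messenger RNA of the DNA methyltransferase Dnmt1 is a known target of this family in other tissues.

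The mature sequences of the hairpins are shown because the comparisons below rest on telling these close relatives and their arms apart. They were taken from RefSeq on GRCm38.p6 and are written 5′ to 3′ with the seed in capitals.
miR-148a-3p: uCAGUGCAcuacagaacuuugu
miR-148b-3p: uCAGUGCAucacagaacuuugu
miR-152-3p: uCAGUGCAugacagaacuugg
miR-148a-5p: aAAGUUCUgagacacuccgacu
miR-148b-5p: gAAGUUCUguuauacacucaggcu
miR-152-5p: uAGGUUCUgugauacacuccgacu

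The 3 members from the 3p arm shared the seed CAGUGCA, and among the 1679 mature mouse miRNAs of the table no other had it at bases 2 to 8. Counted from the 5′ end, miR-148b-3p differed from miR-148a-3p at C9U and U10C, and miR-152-3p differed from it at C9U, U10G and U20G. The 5p arms of Mir148a and Mir148b shared another seed, AAGUUCU, whereas miR-152-5p had AGGUUCU. The differences lie outside the 3p seed but inside the sequenced strand, and every family count was a whole number in all 14 libraries, whereas some other miRNAs had fractional counts. Whether mismatches were allowed when reads were matched is not given in the sources used here, and how many miR-148b-3p and miR-152-3p counts could be misread miR-148a-3p, the far more abundant relative, was not tested.

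The hairpins lie on 3 chromosomes of GRCm38.p6. Mir148a (chr6:51269812-51269910, minus strand) overlapped no other gene in the GENCODE M21 annotation. Mir148b (chr15:103285125-103285221, plus strand) lay in an intron of Copz1 and Mir152 (chr11:96850393-96850465, plus strand) in an intron of Copz2, and both hosts, which encode zeta subunits of the COPI vesicle coat, were on the same strand as their hairpin.

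miR-148a-3p was among the most abundant miRNAs of the epididymis and made up nearly all of the family. It took 13.4% ± 1.72 (SD, n = 3) of all counts in whole caput, 12.0% ± 0.610 (n = 2) in whole corpus and 4.42% ± 0.305 (n = 3) in whole cauda. In epithelial cells its share was 10.7% ± 0.482, 8.96% ± 1.16 and 4.16% ± 1.21 in caput, corpus and cauda (SD, n = 2 each). Among the 3 seed-sharing 3p members it held between 98.9% and 99.7% of the counts in whole tissue and between 97.7% and 99.4% in epithelial cells. It ranked first or second in every caput and corpus library. The miRNAs that stood above it where it was among the 5 most abundant were miR-143-3p in 6 libraries, miR-22-3p in 4, and miR-10b-5p and miR-26a-5p in 2 each.

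The level of miR-148a-3p was lower toward the cauda. In whole caput the 3 libraries held 146071, 140859 and 178585 CPM, in corpus 115455 and 105516 CPM, and in cauda 43398, 39401 and 38085 CPM. In epithelial cells the caput held 125124 and 108864 CPM, the corpus 100876 and 74051 CPM, and the cauda 34882 and 42886 CPM. In both preparations the regions stood in the order caput, corpus, cauda with no overlap between libraries of different regions.

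miR-148a-5p, the minor arm of the same hairpin, took a different course. In whole tissue it held 2382, 2675 and 2325 CPM in caput, 896 and 678 CPM in corpus, and 407, 376 and 445 CPM in cauda. In epithelial cells it held 747 and 648 CPM in caput, 162 and 102 CPM in corpus, and 138 and 177 CPM in cauda. Whole tissue thus showed 3 separate levels, whereas in epithelial cells the corpus and cauda libraries overlapped and only the caput stood apart. The epithelial corpus values rest on 20 and 10 counts and those of the epithelial cauda on 37 each.

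miR-148b-3p varied far less. Its levels were 418, 409 and 469 CPM in whole caput, 369 and 376 CPM in whole corpus, and 331, 275 and 259 CPM in whole cauda. The epithelial libraries held 576 and 532 CPM in caput, 568 and 572 CPM in corpus, and 559 and 564 CPM in cauda. The whole tissue regions did not overlap but lay close together, and the epithelial caput libraries bracketed those of the other regions.

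miR-152-3p, the rarest member, was lowest in the caput of whole tissue. It held 88.8, 93.8 and 107 CPM in whole caput, 127 and 153 CPM in whole corpus, and 154, 127 and 133 CPM in whole cauda. In epithelial cells it held 180.5 and 209 CPM in caput, 276 and 153 CPM in corpus, and 264 and 253 CPM in cauda. Whole corpus and cauda overlapped, and the epithelial corpus pair spanned the caput values.

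**Figure D1:**
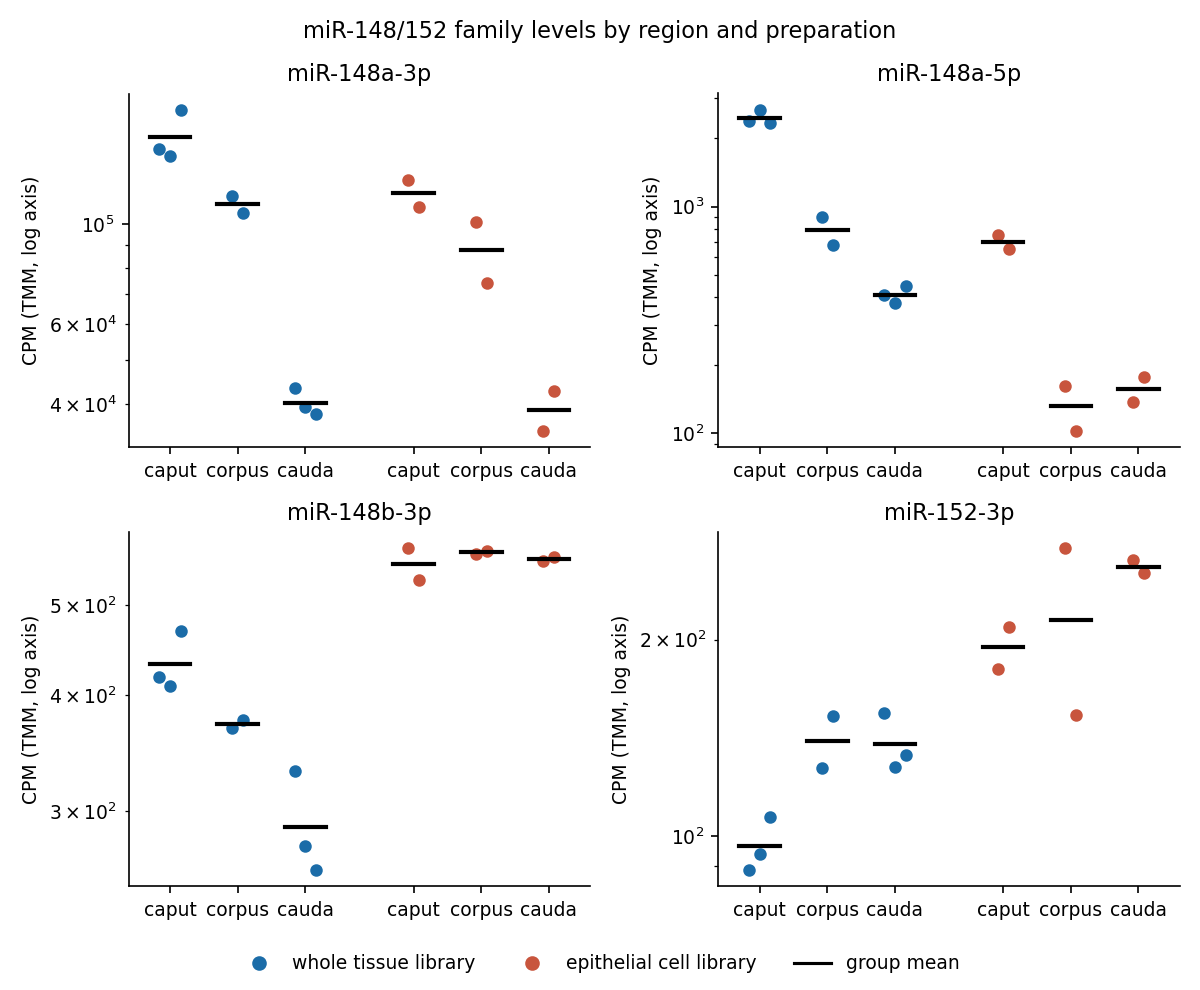
Level of each family member in CPM (log axis, TMM scaling done separately for each preparation) by region, with 1 point per library and a bar at the group mean. miR-148a-3p steps down from caput to cauda in both preparations, and miR-148a-5p drops already in the corpus. miR-148b-3p spans the narrowest range, and miR-152-3p runs from 88.8 CPM in whole caput to 276 CPM in epithelial corpus.

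The regions were compared with limma-voom over all miRNAs of a preparation, and a miRNA was called when its Benjamini-Hochberg adjusted p was below 0.05 and its change at least 2-fold. In whole tissue, 15.9% of the miRNAs tested were called lower in corpus than in caput, 12.9% lower in cauda than in corpus and 25.4% lower in cauda than in caput. The family had 1, 1 and 2 of its 4 members called lower in these comparisons and 0 called higher by limma, edgeR or DESeq2. With 4 members, 1 call is the smallest share above 0 that can be seen, and every call was an arm of Mir148a. Adjusted p was below 0.05 at any fold for 3, 3 and 4 of the members, beside 59.3%, 54.3% and 79.2% of all miRNAs tested. With library totals these counts were 2, 3 and 3, and without whole corpus replicate 2 they were 1, 2 and 4.

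From whole caput to whole cauda, miR-148a-3p fell by 1.94 on the log2 scale (SE 0.10, limma adjusted p = 9.1e-08), which is 3.83-fold. Most of this lay past the corpus, with a fall by 1.45 from corpus to cauda (SE 0.11, limma adjusted p = 6.4e-06). The step from caput to corpus was -0.48 (SE 0.11, limma adjusted p = 0.0038), which was short of 2-fold. Scaled to library totals, which raised the median miRNA by 0.35 from caput to cauda and by 0.33 from caput to corpus relative to TMM scaling, these changes were -1.59 and -0.15, and the latter had a limma adjusted p of 0.24.

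The 5p arm had its larger step in the first interval. miR-148a-5p fell by 1.66 from whole caput to corpus (SE 0.13, limma adjusted p = 5.8e-06) and fell by 2.59 from caput to cauda (SE 0.12, limma adjusted p = 6.2e-08), which are 3.16-fold and 6.01-fold. Its change from corpus to cauda was -0.93 (SE 0.14, limma adjusted p = 0.00034), just under 2-fold. That value depended on 1 library, since without whole corpus replicate 2 it was -1.12 and was called.

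The paralogues differed less between the regions than either arm of Mir148a from caput to cauda. From whole caput to cauda miR-148b-3p was lower by a log2 difference of -0.59 (SE 0.11, limma adjusted p = 0.00092) and miR-152-3p was higher by 0.52 (SE 0.14, limma adjusted p = 0.0053), both under 2-fold. Scaled to library totals these differences were -0.24 (limma adjusted p = 0.082) and 0.86 (limma adjusted p = 0.00018). From caput to corpus miR-152-3p was higher by 0.53 (limma adjusted p = 0.013), whereas miR-148b-3p differed by -0.21 (limma adjusted p = 0.18) and by 0.12 when scaled to library totals. From corpus to cauda the log2 differences were -0.37 for miR-148b-3p (limma adjusted p = 0.033) and -0.02 for miR-152-3p (limma adjusted p = 0.92). That of miR-148b-3p had an adjusted p below 0.05 in 5 of 9 alternatives, and ranged from -0.48 to -0.30 with a library left out.

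Epithelial cells were tested with fewer counts, and 5.85% of miRNAs were called lower in corpus than in caput, 4.17% lower in cauda than in corpus and 12% lower in cauda than in caput. Again 1, 1 and 2 of the 4 members were called lower and 0 higher, all of them arms of Mir148a. miR-148a-3p fell by 1.59 from epithelial caput to cauda (SE 0.20, limma adjusted p = 0.00091), a 3.02-fold change, and fell by 1.16 from corpus to cauda (SE 0.20, limma adjusted p = 0.010). Without epithelial corpus replicate 1 the latter was -0.94 with a limma adjusted p of 0.076, so that call rests on that library. From caput to corpus its difference was -0.43 (SE 0.20, limma adjusted p = 0.17), which ranged from -0.66 without epithelial corpus replicate 1 to -0.18 without epithelial corpus replicate 2.

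miR-148a-5p fell by 2.36 from epithelial caput to corpus (SE 0.33, limma adjusted p = 0.0030), which is 5.13-fold, and fell by 2.15 from caput to cauda (SE 0.27, limma adjusted p = 0.00087). From corpus to cauda its log2 difference was 0.21 (SE 0.37, limma adjusted p = 0.73). miR-148b-3p and miR-152-3p passed neither limit in any epithelial comparison, with log2 differences from caput to cauda of 0.02 (SE 0.19) and 0.42 (SE 0.29).

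**Figure D2:**
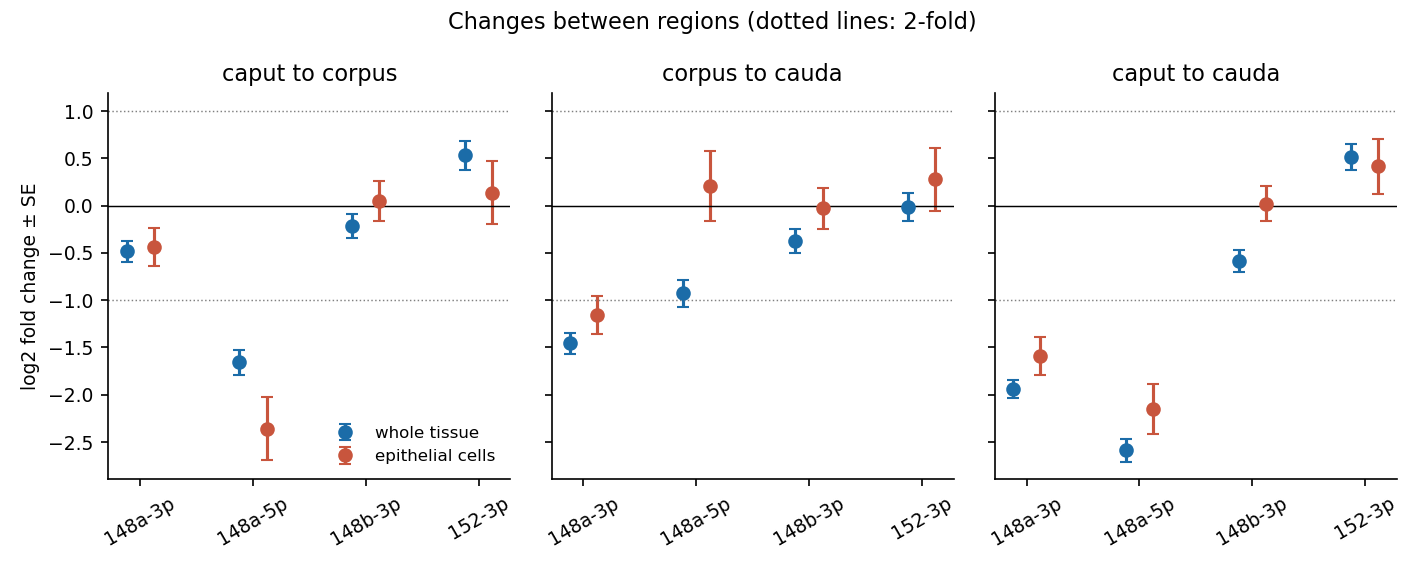
Log2 fold change of the 4 members between regions in whole tissue and in epithelial cells (points, limma-voom; bars, ± SE), with dotted lines at 2-fold. The points of miR-148a-3p lie between -1.94 and -0.43 in all comparisons, and those of miR-148a-5p are lowest where the caput is compared.

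Marker lists of other cell types also differed between the regions, on the same CPM scale. In whole tissue the smooth muscle list summed to between 53228 and 65976 CPM in caput, 76253 and 80349 CPM in corpus, and 223163 and 249092 CPM in cauda, so it was higher where miR-148a-3p was lower. The epithelial list summed to between 20075 and 21754, 15513 and 16184, and 7244 and 8734 CPM in the same regions, and the germ cell list to between 254 and 474, 991 and 1056, and 1509 and 2571 CPM. In the epithelial libraries the smooth muscle list ranged from 144526 to 195706 CPM in caput, from 210041 to 212227 CPM in corpus and from 158218 to 336801 CPM in cauda, with overlap between caput and cauda. The epithelial list there ranged from 15233 to 17326, from 17868 to 18199 and from 13408 to 18637 CPM. The endothelial list (miR-126 arms) stood highest in epithelial cauda, at 46640 to 56669 CPM, beside 13092 to 14322 CPM in corpus and 25517 to 35754 CPM in caput. In whole tissue it summed to between 14776 and 18250 CPM in caput, 13945 and 14743 CPM in corpus, and 16398 and 17319 CPM in cauda. The germ cell list was lowest in epithelial caput, at 103 to 143 CPM, beside 603 to 1444 CPM in epithelial corpus and 566 to 965 CPM in epithelial cauda. The leukocyte and red blood cell lists were highest in the cauda of both preparations, and reached at most 1979 and 451 CPM. All 5 epithelial, 4 of the 6 smooth muscle, all 4 germ cell, 2 of the 4 endothelial, 4 of the 6 leukocyte and 3 of the 4 red blood cell names were in each table, and their part in the fall of miR-148a-3p was not tested. Fewer cells of a type and less RNA per cell cannot be told apart in these bulk samples.

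The regional differences themselves were compared between preparations in a joint fit of the 14 libraries over the shared names. By limma, 0 of the 4 members were called for caput to corpus, corpus to cauda or caput to cauda, where 0.515%, 4.64% and 11.9% of all miRNAs were. At an unadjusted p below 0.05 the counts were 1, 1 and 0 of 4, beside 17.0%, 26.3% and 29.9% of all miRNAs, and edgeR and DESeq2 each called 0. For miR-148a-3p the difference between the preparations in its caput to cauda change was 0.03 on the log2 scale (limma adjusted p = 0.95), and for miR-148b-3p it was 0.30 (SE 0.26, limma adjusted p = 0.49). With a library left out the value of miR-148b-3p ranged from 0.23 to 0.70, and without whole cauda replicate 1 its limma adjusted p was 0.038. For miR-148a-5p the difference was -0.86 in the caput to corpus change (limma adjusted p = 0.23) and 0.98 in the corpus to cauda change (limma adjusted p = 0.17). With at least 10 counts required in every library, the former was -1.08 (limma adjusted p = 0.049) and was called. With a library left out they ranged from -1.07 (without whole corpus replicate 2) to -0.56 (without whole corpus replicate 1) and from 0.76 to 1.502 (without epithelial corpus replicates 2 and 1), with no limma adjusted p below 0.064.

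Levels were then compared between the preparations within a region, where preparation and library batch cannot be told apart. Of all miRNAs tested, 35.2% were called in caput, 25.5% in corpus and 37.8% in cauda, and the family had 2, 1 and 1 of 4 members called. miR-148a-5p was lower in epithelial cells in every region, 3.12-fold in caput, 5.64-fold in corpus and 2.87-fold in cauda (limma adjusted p = 4.7e-07, 1.4e-05 and 6.7e-05). Its partner miR-148a-3p differed by -0.22, -0.32 and -0.20 on the log2 scale (limma adjusted p = 0.22, 0.14 and 0.30). The fold of miR-148a-3p stayed under 2 in every setting run, but the adjusted p did not hold its side: it was below 0.05 for 9 of the 14 libraries left out in caput, 10 of 14 in corpus and 1 of 14 in cauda. The lowest values were -0.61 in caput (limma adjusted p = 0.00071, without epithelial cauda replicate 2) and -0.64 in corpus (limma adjusted p = 0.016, without epithelial corpus replicate 1).

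The other 3p members stood somewhat higher in the epithelial preparation. miR-148b-3p differed by 0.53, 0.64 and 0.83 in caput, corpus and cauda (limma adjusted p = 0.020, 0.044 and 0.0019), under 2-fold in each, although without whole cauda replicate 1 the cauda value was 1.02 and was called. Among the 9 alternatives run, its adjusted p was below 0.05 in 7 for caput, in 4 for corpus and in 9 for cauda. Left-out libraries brought its caput value down to 0.15 (limma adjusted p = 0.40, without epithelial cauda replicate 2) and raised the limma adjusted p of its corpus value to 0.20 (without epithelial corpus replicate 2). miR-152-3p was 2.27-fold higher in epithelial caput (log2 1.18, SE 0.25, limma adjusted p = 0.0010), and differed by 0.65 in corpus (limma adjusted p = 0.12) and 0.78 in cauda (limma adjusted p = 0.014). The corpus value ranged from 0.11 without epithelial corpus replicate 1 (limma adjusted p = 0.85) to 0.95 without epithelial corpus replicate 2 (limma adjusted p = 0.073). The caput value of miR-152-3p fell under 2-fold when any of 6 single libraries was left out, with a lowest value of 0.80 without epithelial cauda replicate 2. The libraries whose removal did so were whole corpus replicate 1, whole cauda replicates 1 and 3, epithelial caput replicate 2, epithelial corpus replicate 1 and epithelial cauda replicate 2. Without the last, the caput values of miR-148a-3p, miR-148b-3p and miR-152-3p all lay lower, at -0.61, 0.15 and 0.80. Other scalings also moved the members together. With DESeq2 size factors, which lowered the median miRNA by 0.15 in caput, miR-148a-3p, miR-148a-5p, miR-148b-3p and miR-152-3p were at -0.38, -1.79, 0.38 and 1.03. With library totals, which raised it by 0.13 in cauda, they were at -0.06, -1.41, 0.95 and 0.90 there. The level at which the preparations count as equal thus depends on the scaling.

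The arm ratio, the 3p count divided by the 5p count of a hairpin in the same library, needs no scaling between libraries. For Mir148a it was 61.3, 52.7 and 76.8 in whole caput, 129 and 156 in whole corpus, and 107, 105 and 85.7 in whole cauda. In epithelial cells it was 168 and 168 in caput, 622 and 725 in corpus, and 253 and 243 in cauda. The corpus had the highest ratio in both preparations, the caput the lowest, and no library of one region overlapped those of another within a preparation.

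Region labels were exchanged within each preparation in an exact two-sided permutation test on log2 ratios with a pseudocount of 0.5 on each count. Replicate numbers were not used as pairs, and exchange within pairs was not run. The Mir148a ratio was 2.95-fold higher in corpus than in caput (exact permutation p = 0.017, adjusted over 12 tests p = 0.017), the smallest value that this design allows. By preparation the difference was 2.25-fold in whole tissue and 3.87-fold in epithelial cells. The ratio was then 1.95-fold lower in cauda than in corpus (exact permutation p = 0.017) and 1.51-fold higher in cauda than in caput (exact permutation p = 0.017), again the smallest values allowed. Without whole corpus replicate 2 the former had an exact permutation p of 0.083.

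Between preparations the Mir148a ratio was 3.12-fold higher in epithelial cells, with region held fixed (exact permutation p = 0.0017, adjusted p = 0.0067, the smallest value allowed). The difference was 2.67-fold in caput, 4.57-fold in corpus and 2.48-fold in cauda, and the libraries of the preparations did not overlap within any region. Written as a share, the 5p arm was 1.58% ± 0.290 (SD, n = 3) of the hairpin's counts in whole caput and 0.149% ± 0.0162 (n = 2) in epithelial corpus. In the epithelial corpus libraries the exact 95% binomial intervals were 0.0981% to 0.248% and 0.0661% to 0.253%, which cover counting error only.

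**Figure D3:**
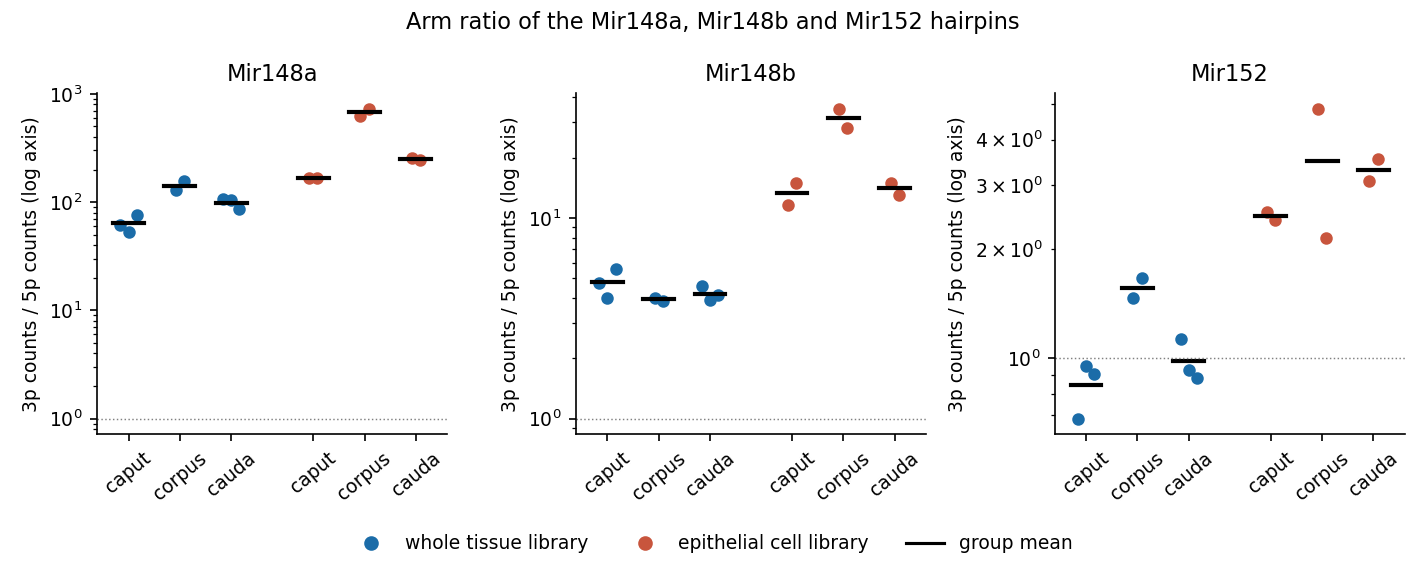
Ratio of 3p to 5p counts (log axis) of the Mir148a, Mir148b and Mir152 hairpins by region, with 1 point per library, a bar at the group mean and a dotted line at equal counts. The Mir148a ratio peaks in the corpus of both preparations, at 129 and 156 in whole tissue and at 622 and 725 in epithelial cells, and whole tissue Mir152 lies near equal counts.

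The change was set against all hairpins with both arms above a mean count of 10. From caput to corpus in whole tissue, the ratio of the major to the minor arm changed by a median of 0.03 on the log2 scale over 83 hairpins, and Mir148a, at 1.17, ranked 9 from the top. In epithelial cells the median over 23 hairpins was 0.48 and Mir148a, at 1.95, ranked 1. By absolute size of the change Mir148a ranked 13, 26 and 28 of 83 in whole tissue from caput to corpus, corpus to cauda and caput to cauda, and 1, 2 and 8 of 23 in epithelial cells, so its change from caput to cauda was less set apart. For the difference between preparations Mir148a ranked 8, 6 and 12 of 19 hairpins by absolute size in caput, corpus and cauda, where the median absolute difference was 0.81, 0.98 and 1.57. A difference of arm ratio between the preparations was therefore common among hairpins, and in cauda that of Mir148a was below the median.

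**Figure D4:**
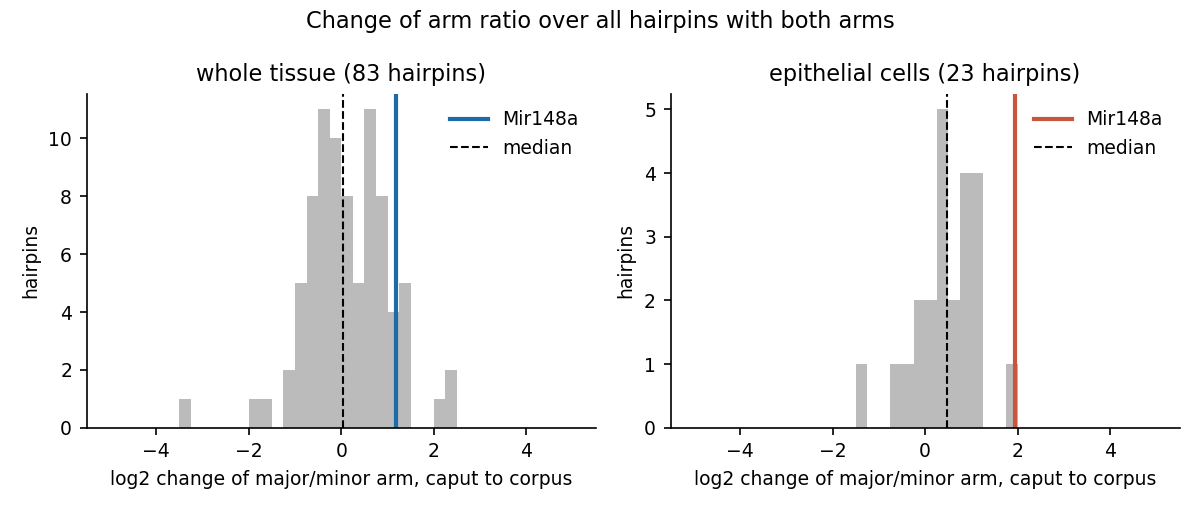
Number of hairpins by log2 change of their major to minor arm ratio from caput to corpus, over all hairpins with both arms above a mean count of 10, in whole tissue and epithelial cells, with the median (dashed line) and Mir148a (coloured line). Mir148a lies at 1.17 in whole tissue, inside the upper tail, and at 1.95 in epithelial cells, the highest of 23.

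The other hairpins of the family were less one-sided. For Mir148b the 3p arm exceeded the 5p arm by between 3.87-fold and 5.59-fold in whole tissue and between 11.6-fold and 35-fold in epithelial cells. The epithelial corpus libraries had only 2 counts of miR-148b-5p each, and the 5p share there was 2.78% (exact 95% interval 0.338% to 9.68%) and 3.45% (0.420% to 11.9%), so the upper ratios are loosely set. For Mir152 the arms were nearly equal in whole tissue, with ratios between 0.683 and 1.66, and the 3p arm exceeded the 5p arm by between 2.14-fold and 4.86-fold in epithelial cells. The whole tissue corpus ratios of Mir152, 1.47 and 1.66, stood above those of caput, which were 0.683, 0.951 and 0.907, and cauda, which were 1.13, 0.928 and 0.886. miR-152-5p itself was higher by 0.66 on the log2 scale from whole corpus to cauda (limma adjusted p = 0.0043), under 2-fold, while miR-152-3p differed by -0.02.

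Because the 3p members share a seed, their proportions were also compared within libraries. The ratio of miR-148a-3p to miR-148b-3p was 349, 344 and 381 in whole caput, 313 and 281 in whole corpus, and 131, 143 and 147 in whole cauda. In epithelial cells it was 217 and 205 in caput, 178 and 129 in corpus, and 62.5 and 76.1 in cauda. miR-148a-3p outnumbered its relative in every library, with a margin that was narrower toward the cauda. The ratio was 2.80-fold lower in cauda than in caput, 2.15-fold lower in cauda than in corpus and 1.30-fold lower in corpus than in caput (exact permutation p = 0.017 for each, the smallest value allowed). The last of these gave an exact permutation p of 0.10 when either epithelial caput library was left out.

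The ratio of miR-148a-3p to miR-152-3p had a wider range. It was 1646, 1501 and 1669 in whole caput, 909 and 690.4 in whole corpus, and 281, 309 and 286 in whole cauda. In epithelial cells it was 693 and 519.8 in caput, 366 and 483 in corpus, and 132 and 169 in cauda. It was 4.69-fold lower in cauda than in caput and 1.71-fold lower in corpus than in caput (exact permutation p = 0.017 for each). Between preparations with region held fixed, the ratio to miR-148b-3p was 1.90-fold lower and the ratio to miR-152-3p 2.16-fold lower in epithelial cells (exact permutation p = 0.0017 for each).

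**Figure D5:**
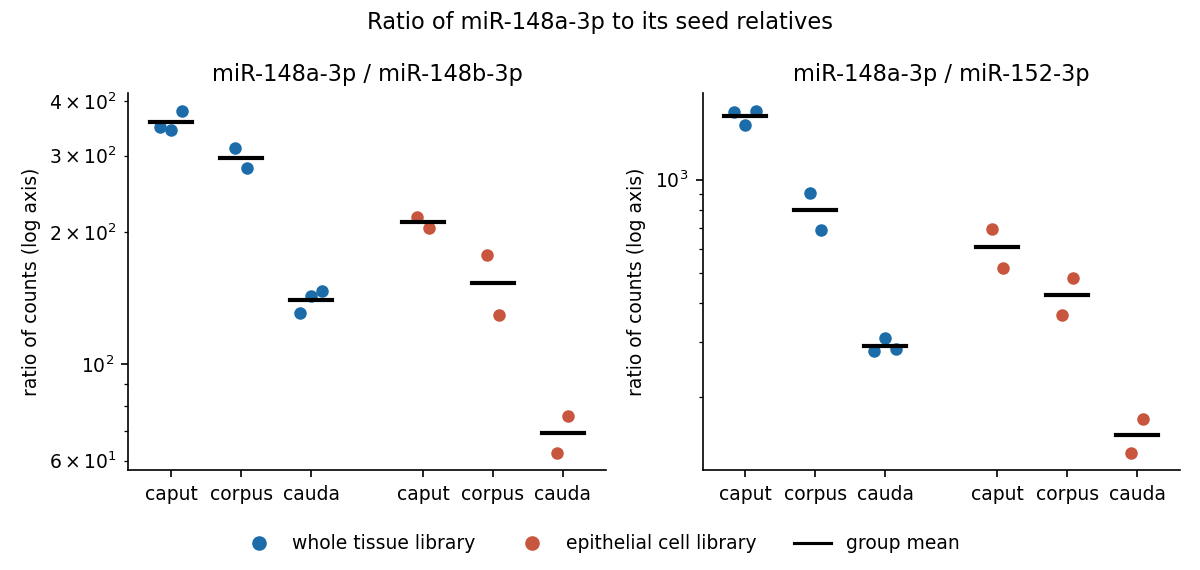
Ratio of miR-148a-3p counts to those of miR-148b-3p and miR-152-3p (log axes) by region, with 1 point per library and a bar at the group mean. Both ratios are lowest in cauda, at 131 to 147 and 281 to 309 in whole tissue and at 62.5 to 76.1 and 132 to 169 in epithelial cells.

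The family seed also occurs, moved by 1 base, at bases 1 to 7 of the miR-130 and miR-301 group, whose own seed is AGUGCAA. Of this group, miR-130a-3p, miR-130b-3p, miR-301a-3p and miR-301b-3p were in both tables, and the sequence of miR-301b-3p was not checked here. In whole tissue 4 of them were tested and limma, edgeR and DESeq2 each called 0 in any comparison of regions. At an unadjusted p below 0.05 limma gave 1, 0 and 1 of 4 from caput to corpus, corpus to cauda and caput to cauda, beside 63.5%, 59.8% and 81.7% of all miRNAs. miR-130a-3p, the member behind those counts, was higher by 0.62 in corpus than in caput (limma adjusted p = 0.0020) and by 0.67 in cauda than in caput (limma adjusted p = 0.00033), opposite in sign to miR-148a-3p. In epithelial cells 2 were tested, and each tool again called 0, with 1, 1 and 0 of 2 at an unadjusted p below 0.05 by limma, beside 34.6%, 30.2% and 50.5% of all miRNAs.

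The whole tissue pattern of miR-148a-3p was compared with that of the other 99 of the 100 most abundant miRNAs, by the root mean square difference of log2 CPM centred over the 8 libraries. The closest were miR-182-5p at 0.12, miR-99b-5p at 0.16, miR-96-5p at 0.20, miR-191-5p at 0.22 and miR-183-5p at 0.27, beside a median of 0.81. miR-182, miR-96 and miR-183 are transcribed from 1 cluster. In the 6 epithelial libraries the same 5 differed from miR-148a-3p by 0.27, 0.42, 0.55, 0.35 and 0.49, where the median was 0.80. The members themselves were farther away in whole tissue, at 0.49 for miR-148a-5p, 0.62 for miR-148b-3p and 1.07 for miR-152-3p. In epithelial cells they were at 0.84, 0.69 and 0.87, so miR-148a-5p and miR-152-3p lay beyond the median there.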

How the data were processed

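Small RNA libraries were made from pooled RNA and sequenced as single reads. Per the methods, the authors removed reads matching PhiX, adaptors, mitochondrial or ribosomal sequence and matched the rest to mm10 and to mature mouse miRNAs of miRBase 21, and their processing notes name Bowtie 1.1.1, CASAVA 1.8.2 and limma. How reads matching several miRNAs were assigned is not given in the sources used here. The deposited values are expected counts per mature miRNA, some of them fractions, and the epithelial table holds 0.001 more in every cell, which was subtracted. The tables name some miRNAs differently (miR-145a-5p and miR-145-5p), and such names were not joined. Values were rounded before testing.

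Counts were fitted with limma 3.58.1 (voom) and edgeR 4.0.16 (TMM factors) in R 4.3.3, 1 fit per preparation and 1 joint fit over the 578 shared names. A miRNA was tested when its mean count was above 10 in either of the groups compared, that is in either region within a preparation or in either preparation within a region. For the difference between preparations in a regional change, its mean count had to be above 10 in at least 1 region of each preparation. DESeq2 1.42.0 and edgeR's quasi-likelihood test served as alternatives, with other scalings, filters, a replicate block and each library left out. The code of the fits was also run on simulated data, with no outcome reported here. Ratios were tested by exact permutation, with exact binomial (Clopper-Pearson) intervals at 95% for shares. Depth was the library total, and intervals cover counting error only. Replicates of a region differed by more than sampling noise, with chi-square values of 9.13 to 63.9 per degree of freedom. The main fits and the ratio tests did not use replicate numbers as pairs, and the replicate block took in every region. Over 360 miRNAs, deviations of same-numbered libraries from their group means correlated at 0.22, 0.11 and 0.14 for whole caput and cauda. For whole corpus and cauda the values were 0.24 and 0.16, and for whole caput and corpus -0.0022 and -0.031. In epithelial cells, over 216 miRNAs, they were 0.22 for caput and corpus, -0.12 for caput and cauda and -0.073 for corpus and cauda. The genes named were the members, their partner arms, the miR-130 and miR-301 group, the 5 miRNAs most like miR-148a-3p in whole tissue, and any above it where it ranked in the top 5. The members and lists were chosen with earlier results of these data known.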

Additional observations from a re-analysis of the deposited data

How the results depend on the processing

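Each family call of the region comparisons kept its direction under every alternative and left-out library run. The count of members called was 2 for whole corpus to cauda with totals less the members, 1 for epithelial against whole caput with all miRNAs of at least 1 count, and 1 for the difference in caput to corpus change with at least 10 counts in every library. With a library left out it was 1 to 2 for whole corpus to cauda, 0 to 1 for epithelial corpus to cauda, 1 to 2 for epithelial against whole caput and 1 to 2 for epithelial against whole cauda. The cause was not tested.

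With the replicate number as a block, no family call changed: 2 members were called from whole caput to cauda, among 187 miRNAs against 189 without it, and 2 from epithelial caput to cauda. There the numbers did not pair the libraries (r = -0.12), and 54 miRNAs were called with the block, 65 with crossed numbers, a choice made after seeing the data, and 56 with neither.

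With a library left out, the log2 difference from caput to corpus ranged from 1.49 to 1.63 for the Mir148a arm ratio, from -0.49 to -0.26 for miR-148a-3p to miR-148b-3p and from -0.88 to -0.67 for miR-148a-3p to miR-152-3p. From corpus to cauda the ranges were -1.03 to -0.90, -1.22 to -0.99 and -1.55 to -1.36. Where a whole caput or whole cauda library was left out of these, the smallest p allowed was 0.056.

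Differences that changed sign were all of members not called. miR-148b-3p was 0.12 from whole caput to corpus with library totals and 0.095 with totals less the members. With DESeq2 size factors miR-152-3p was 0.028 from whole corpus to cauda, and the difference between preparations in the caput to corpus change of miR-148a-3p was 0.051. With all miRNAs of at least 1 count, miR-148b-3p was -0.093, 0.0066 and -0.087 in epithelial caput to corpus, corpus to cauda and caput to cauda, and miR-152-3p was -0.0069 from caput to corpus. With at least 10 counts in every library, miR-148b-3p was -0.10 from epithelial caput to cauda. Under that filter the preparation difference in its caput to corpus change was -0.085, and those in caput to cauda change were -0.27 for miR-148a-3p, -0.18 for miR-148a-5p and -0.018 for miR-148b-3p.

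With a library left out, the ranges across 0 were -0.12 to 0.13 for miR-152-3p in whole corpus to cauda, and in epithelial cells -0.31 to 0.55 for miR-152-3p in caput to corpus, -0.084 to 0.55 for miR-148a-5p, -0.067 to 0.0079 for miR-148b-3p and -0.10 to 0.72 for miR-152-3p in corpus to cauda, and -0.00056 to 0.14 for miR-148b-3p in caput to cauda. miR-148a-3p in epithelial against whole cauda ranged from -0.37 to 0.0031. The preparation differences ranged from -0.20 to 0.071 (caput to corpus), -0.014 to 0.54 (corpus to cauda) and -0.043 to 0.38 (caput to cauda) for miR-148a-3p, and from -0.17 to 0.76 and -0.48 to 0.062 in the last 2 for miR-152-3p.

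Calls over all miRNAs shifted more. Across the alternatives they ranged from 64 to 128, 63 to 115 and 115 to 255 in the whole tissue comparisons (100, 93 and 189 as reported), from 17 to 53, 15 to 37 and 28 to 68 in epithelial cells (25, 21 and 56), from 39 to 234, 35 to 266 and 39 to 258 between preparations (100, 70 and 112) and from 0 to 11, 6 to 19 and 19 to 31 for the difference between them (1, 9 and 23). With a library left out, the epithelial counts ranged from 10 to 30, 4 to 27 and 26 to 60. With library totals, whole caput to corpus had 76 higher and 35 lower instead of 47 and 53, whole caput to cauda 115 and 65 instead of 99 and 90, epithelial caput to corpus 18 and 9 instead of 13 and 12, and epithelial caput to cauda 39 and 19 instead of 30 and 26. Depth limits the minor arms most, with 10 to 37 counts of miR-148a-5p in epithelial corpus and cauda.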
